A study of Homo sapiens with 12 samples.

Results

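The genes described here are 42 targets and partners of ATF4, the transcription factor of the amino acid response, together with the cytosolic aminoacyl-tRNA synthetases that this response is known to raise. They were chosen as a named list, matched by gene symbol or Entrez identifier, and all 42 had a probe on the array, of 30499 genes that the array measures. By role they were 11 transcription factors and regulators, 10 enzymes of serine, glycine, folate-linked and sulfur amino acid metabolism, 8 transport and other target genes, and 13 synthetases. They were read by 66 probes, of which 56 passed the detection filter, and every member kept at least 1 probe.

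The source names give H9, an established human embryonic stem cell line, for the dox-minus and dox-plus cultures, and name no line for the hairpin cultures. In all, 12 cultures were measured on 1 Illumina bead array each, in 6 groups of 2. Of the LHX2 line, in which doxycycline switches on the neural homeodomain factor LHX2, dox-minus and dox-plus cultures were collected at day 4 and at day 16. Doxycycline was given for 3 days, so that the dox-plus cultures were taken 1 and 13 days after it ended. The other 2 groups carried a short hairpin RNA against LHX2 (shLHX2) or the control hairpin shLuc, both after 12 days of neural induction. The series text states that replicates were biological duplicates. It names a GFP control, but no array of the set is labelled as one, so effects of LHX2 and of doxycycline itself cannot be told apart in the dox comparisons. The sources used here do not say whether the LHX2 line is 1 clone.

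The amino acid response starts when uncharged tRNA, which builds up when an amino acid runs short, activates the kinase GCN2. GCN2 phosphorylates the initiation factor eIF2, as other kinases do under endoplasmic reticulum stress, haem shortage or viral infection. General translation then falls while the ATF4 messenger is translated more, so that ATF4 protein can change with little change in its messenger. ATF4, with C/EBP partners, binds C/EBP-ATF response elements and raises genes for amino acid synthesis, uptake and tRNA charging.

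The core of that element, TGATGNAA, was searched for on both strands of the RefSeq promoter windows of GRCh38.p14, which run from 250 bases before to 50 bases after each gene's start. A window was at hand for 34 of the 42 members, and 10 of these windows (29.4%) held the core, against 3.62% of all 35116 windows and 2.03% of the 15310 windows of genes tested on the arrays. The synthetases had the largest share of the 4 sets, with 6 of 10 windows. The stretches around 9 of the matches are shown because they let the sites of the synthetases be compared with those of the metabolic and regulatory members. The core is in capitals, and each stretch reads 5′ to 3′ on the gene's own strand.
ATF3 (chr1:212565180-212565259, plus strand): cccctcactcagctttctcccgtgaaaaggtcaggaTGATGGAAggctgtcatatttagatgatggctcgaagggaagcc
CHAC1 (chr15:40953226-40953305, plus strand): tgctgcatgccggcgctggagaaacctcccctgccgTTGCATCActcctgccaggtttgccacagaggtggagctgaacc
ASNS (chr7:97872433-97872512, minus strand): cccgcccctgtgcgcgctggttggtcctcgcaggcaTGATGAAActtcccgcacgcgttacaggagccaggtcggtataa
AARS (chr16:70289650-70289729, minus strand): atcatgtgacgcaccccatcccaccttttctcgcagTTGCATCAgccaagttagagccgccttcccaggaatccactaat
CARS (chr11:3057418-3057461, minus strand): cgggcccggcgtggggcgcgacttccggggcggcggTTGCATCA
IARS (chr9:92293698-92293746, minus strand): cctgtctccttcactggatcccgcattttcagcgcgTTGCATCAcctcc
MARS (chr12:57488028-57488071, plus strand): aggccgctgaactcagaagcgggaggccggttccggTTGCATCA
NARS (chr18:57621815-57621858, minus strand): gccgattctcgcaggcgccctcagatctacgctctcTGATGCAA
TARS (chr5:33440931-33440974, plus strand): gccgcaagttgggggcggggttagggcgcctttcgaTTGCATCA
In CHAC1, AARS, CARS, IARS, MARS and TARS the capitals read TTGCATCA, the reverse complement of TGATGCAA, which NARS carries on its sense strand. ATF3 has TGATGGAA and ASNS has TGATGAAA. The match of ATF3 started 191 bases before the annotated start, that of CHAC1 209 bases, that of AARS 187 bases and that of ASNS 68 bases, whereas those of CARS, IARS, MARS, NARS and TARS lay within 14 bases of it. The match of SLC3A2 began 37 bases after the start and its stretch is not shown. Windows of NUPR1, PSPH, SHMT2, ALDH1L2, SLC7A11, LARS, VARS and YARS were not analysed here. A match describes these letters only and is not a binding site shown by the data.

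Array medians of raw intensity ran from 73.1 to 89.2, and 19050 to 20489 probes were detected per array at a detection p under 0.01. All 10 pluripotency markers looked up were detected on both arrays of the dox-minus day 4 H9 cells. Correlations of normalized log2 signal were 0.976 to 0.994 within groups and 0.901 to 0.989 between them. LHX2 itself was lower in shLHX2 than in shLuc cells by 2.03 ± 0.27 on the log2 scale (log2 fold change -2.03, fitted SE, limma adjusted p 0.00593). At day 4 it was not above background on either dox-minus array and was so on 1 of 2 dox-plus arrays, which were at least 1.05-fold higher (adjusted p 0.272), and at day 16 the dox-plus cells stood 0.86 above the dox-minus cells (adjusted p 0.0581). The sources used here do not say whether the induced construct carries the sequence that the LHX2 probe reads, so these values do not check the dox labels.

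At day 16, 13 days after doxycycline ended, the dox-plus cells had lower signals of most amino acid response genes than the dox-minus cells. Of the 42 members, 24 (57.1%) were called lower and 0 higher (32 and 0 at an unadjusted p under 0.05), where a gene was called at a limma adjusted p under 0.05 over 15649 genes. Of all genes tested, 13.7% were called, 7.62% lower and 6.08% higher. The median log2 fold change was -0.76 over the members and 0.02 over all genes, and 39 members lay below 0. Of the 42 members, 34 had their lowest group mean in the dox-plus day 16 cells, and the matching share of all genes was not counted. The calls covered 9 of 11 regulators, 6 of 10 enzymes, 4 of 8 transport and other targets, and 5 of 13 synthetases. Without dox-plus replicate 1 the count of members called fell to 14 (6 regulators, 3 enzymes, 3 transport and other targets and 2 synthetases), and 13 of the 24 calls were kept without each of the 12 arrays in turn.

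**Figure D1:**
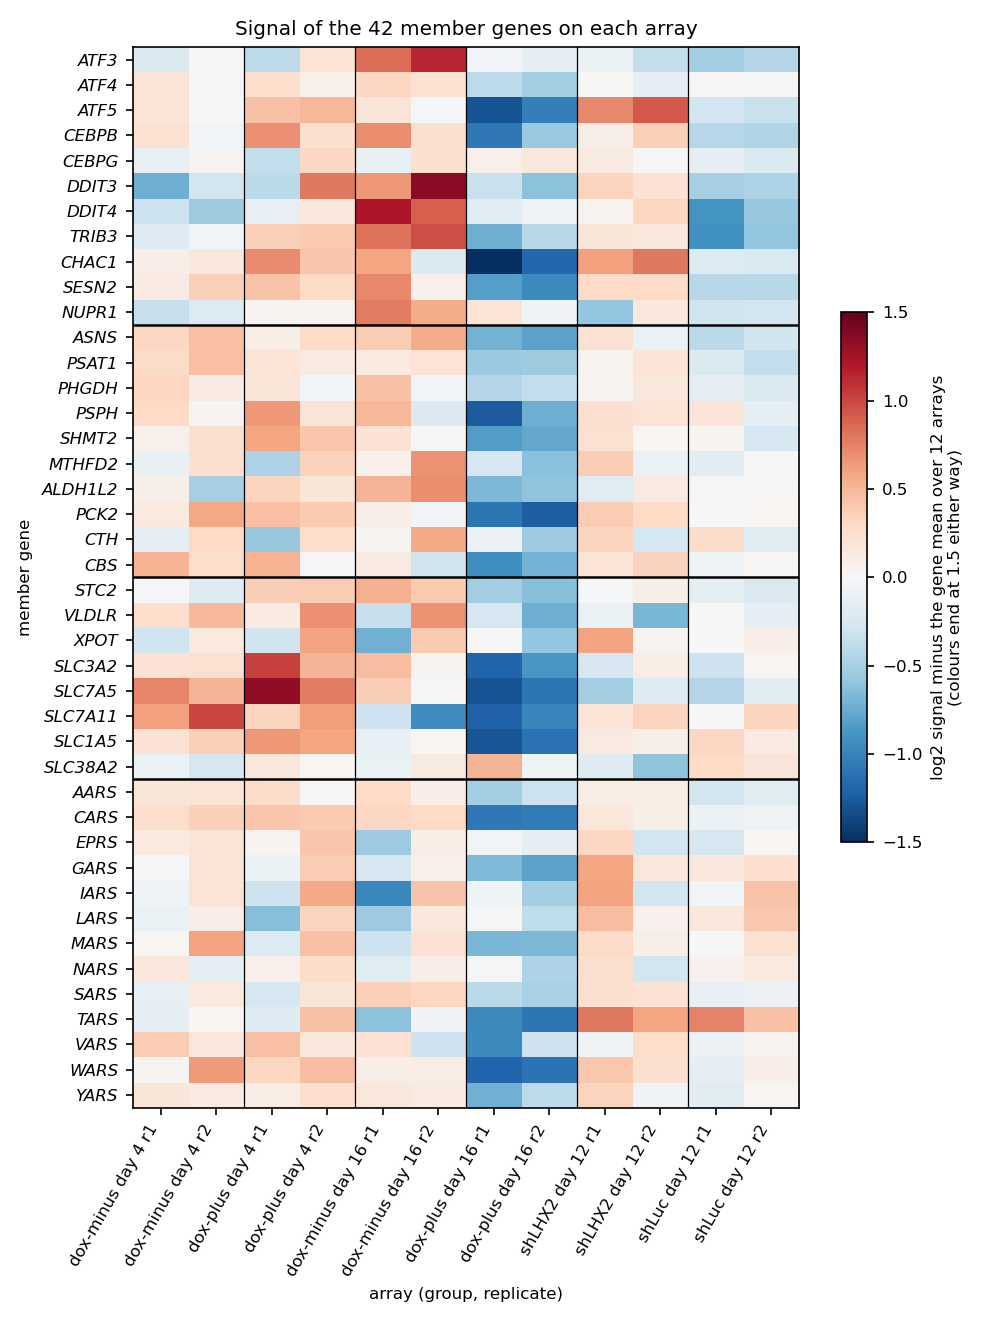
Normalized log2 signal of the 42 members (rows, in the order regulators, enzymes, transport and other targets, synthetases) on the 12 arrays (columns), with each gene's mean over the 12 arrays subtracted. Red is above and blue below that mean. The 2 dox-plus day 16 columns hold the lowest group mean for 34 of the 42 genes, a count not made over all genes.

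Levels of cell type markers also differed between these groups and move with the result above. Of 11 mesenchyme and fibroblast markers tested, 10 were called lower in dox-plus day 16 cells, and their summed linear signal ran from 8660 to 9260 there against 37900 to 38800 in dox-minus cells. Of 9 mesoderm markers, 7 were lower (6230 to 6830 against 34700 to 36400), and FOXF1, GATA4 and APLNR were not detected on either dox-plus array. T was not detected in either group, and TBX20 did not pass the detection filter. Of 10 neural progenitor markers, 7 were higher (37300 to 38400 against 11900 to 13400), with SOX1 and ZIC1 not detected in either group. LHX2 itself is in this list and its sum, and it was not among the 7 called (adjusted p 0.0581). Of 9 neural crest markers 5 were lower (4260 to 4770 against 9440 to 12100), of 6 endoderm markers 3 (233 to 258 against 894 to 914) and of 3 endothelial markers 2 (559 to 620 against 1030 to 1150). Pluripotency markers summed to 38000 to 43400 against 27600 to 32800, with 1 of 10 called higher and 2 lower. Neuronal markers summed to 4360 to 4810 against 4130 to 5510, with 3 of 8 higher and 3 lower. The part of these shifts in the members' values was not tested, and in bulk RNA fewer cells of a type and less RNA per cell cannot be told apart.

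Among the regulators, CHAC1, DDIT3 and TRIB3 had the largest differences. CHAC1, an enzyme that degrades glutathione, had normalized log2 signals of 6.11 and 6.50 on the dox-plus day 16 arrays and 8.27 and 7.46 on the dox-minus arrays. The groups did not overlap, and the log2 fold change of -1.56 ± 0.26 (fitted SE, adjusted p 0.0017) is a 2.96-fold lower level. Genes shown with array values were picked by their change or after it was seen, so separate groups add no support. TRIB3, a pseudokinase that restrains ATF4 and CHOP activity, read 9.10 and 9.42 in dox-plus and 10.65 and 10.80 in dox-minus cells. Both dox-plus values lay below both dox-minus values, with a log2 fold change of -1.46 ± 0.19 (adjusted p 0.00038).

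DDIT3, which encodes the stress factor CHOP, read 8.10 and 7.82 in dox-plus and 9.09 and 9.78 in dox-minus day 16 cells. Its log2 fold change was -1.48 ± 0.34 (adjusted p 0.0144), with the largest standard error among the regulators. ATF5, a relative of ATF4 that is itself under translational control, read 9.21 and 9.47 against 10.70 and 10.48 (-1.25 ± 0.18, adjusted p 0.000907). In each of these genes the groups were separate on all 4 arrays.

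CEBPB, a C/EBP partner of ATF4, read 10.59 and 11.10 in dox-plus and 12.36 and 11.90 in dox-minus cells (-1.29 ± 0.25, adjusted p 0.00447). SESN2, which restrains mTORC1 when leucine is short, read 6.81 and 6.68 against 8.36 and 7.71 (-1.29 ± 0.22, adjusted p 0.0021). Neither gene overlapped between the groups, although the dox-minus replicates of SESN2 were further apart than its dox-plus replicates. DDIT4, another mTORC1 inhibitor, had a log2 fold change of -1.17 (adjusted p 0.00309), and ATF3, a stress-induced repressor, one of -1.09 (adjusted p 0.00718).

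ATF4 itself was lower by a smaller amount. It read 13.76 and 13.64 on the dox-plus and 14.46 and 14.38 on the dox-minus day 16 arrays (-0.72 ± 0.18, adjusted p 0.0183), a 1.65-fold lower level of the messenger with no overlap. CEBPG, another C/EBP partner of ATF4, was at 0.05 (adjusted p 0.905). NUPR1, a small stress-induced nuclear protein, was at -0.59 (adjusted p 0.116). The calls of ATF3, ATF4, CEBPB and DDIT3 were lost when single arrays were left out. Without dox-plus replicate 1 the adjusted p was 0.0664 for CEBPB, 0.0567 for DDIT3 and 0.0798 for ATF4. Without dox-plus replicate 2 it was 0.0517 for ATF3, 0.102 for ATF4 and 0.0867 for DDIT3. Without dox-minus replicate 1 it was 0.0949 for ATF4, and without dox-minus replicate 2 it was 0.0577 for DDIT3.

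**Figure D2:**
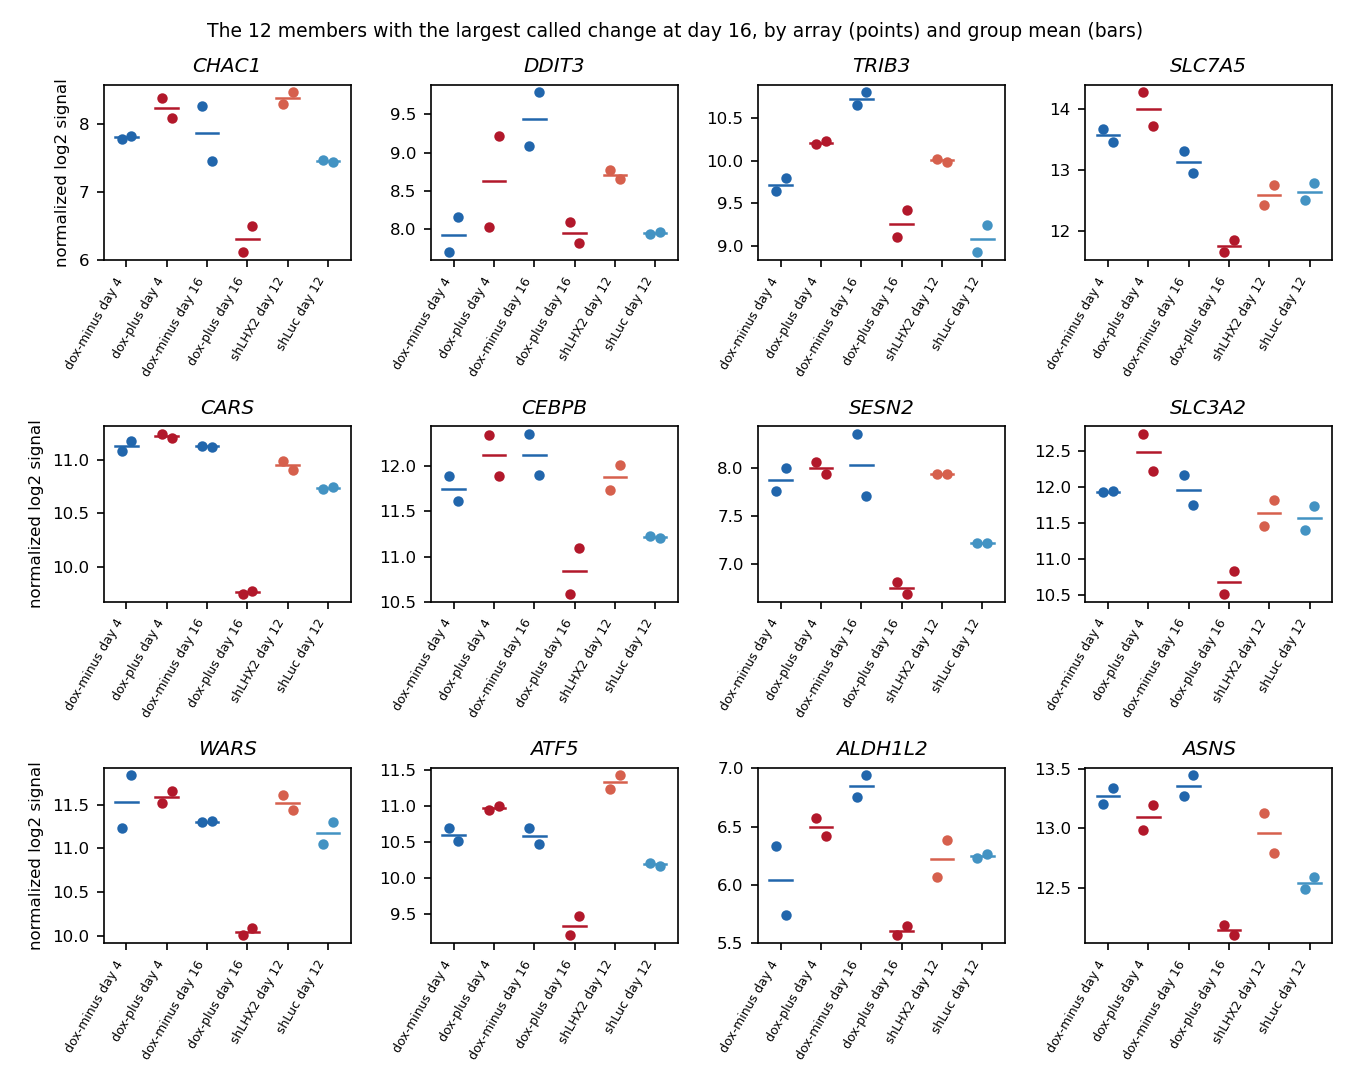
Normalized log2 signal (y axis, not starting at 0) of the 12 members with the largest called change at day 16 in each of the 6 groups (x axis). Points are single arrays and bars the group mean of 2 arrays. In all 12 panels both dox-plus day 16 points lie below both dox-minus day 16 points, which picking the genes by this change made likely.

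All 10 enzymes lay below 0 at day 16. ASNS, which makes asparagine and is the classic target of the response, read 12.19 and 12.10 in dox-plus and 13.27 and 13.45 in dox-minus cells (-1.22 ± 0.19, adjusted p 0.0012). ALDH1L2, the mitochondrial formyltetrahydrofolate dehydrogenase, read 5.57 and 5.64 against 6.75 and 6.94 (-1.24 ± 0.22, adjusted p 0.0028). In both genes the dox-plus replicates lay within 0.1 of each other and the groups were separate. The ALDH1L2 probe was detected on all 12 arrays. Its dox-plus signals were near those of NUPR1 at dox-minus day 4 (5.56 and 5.69), where 1 of 2 arrays was detected. A second ALDH1L2 probe was detected on 0 arrays and gave -0.45.

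PCK2, the mitochondrial phosphoenolpyruvate carboxykinase, was lower by 1.18 on the log2 scale (log2 fold change -1.18, adjusted p 0.00152). Within serine synthesis, 2 of 3 enzymes were called. PSPH, the last enzyme of that path, was at -1.13 (adjusted p 0.0178) and PSAT1, the aminotransferase before it, at -0.72 (adjusted p 0.0162). PHGDH, the first enzyme, was at -0.60 (adjusted p 0.0694) and was not called. SHMT2, which splits serine to glycine in mitochondria, was at -0.91 (adjusted p 0.00733). MTHFD2, the next mitochondrial folate enzyme, was at -0.81 (adjusted p 0.0977).

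The transsulfuration enzymes CBS (-0.73, adjusted p 0.0546) and CTH (-0.63, adjusted p 0.228) were not called. Without dox-minus replicate 1 the adjusted p was 0.145 for PSPH, 0.0568 for SHMT2 and 0.0584 for PSAT1. Without dox-plus replicate 1 it was 0.181 for PSPH, 0.0673 for SHMT2 and 0.107 for PSAT1, and without dox-plus replicate 2 it was 0.075 for PSAT1. The calls of ASNS, ALDH1L2 and PCK2 were kept without each array.

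Both chains of the large neutral amino acid exchanger were lower at day 16. SLC7A5, its transporting subunit LAT1, read 11.65 and 11.86 in dox-plus and 13.32 and 12.95 in dox-minus cells (-1.38 ± 0.24, adjusted p 0.00233). SLC3A2, the heavy chain that carries it to the membrane, read 10.52 and 10.84 against 12.17 and 11.75 (-1.28 ± 0.24, adjusted p 0.00422). No array of one group reached the level of the other group in either gene.

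SLC1A5, the glutamine transporter ASCT2, was at -1.15 (adjusted p 0.00108), and STC2, a secreted glycoprotein of the stress response, at -1.05 (adjusted p 0.00168). SLC7A11, the cystine-importing partner of SLC3A2, was at -0.47 (adjusted p 0.231) and was detected on 1 of 2 dox-minus and 0 of 2 dox-plus day 16 arrays, so that its difference there is poorly measured. SLC38A2, a sodium-coupled neutral amino acid transporter, was at 0.21 (adjusted p 0.569). VLDLR, a lipoprotein receptor, was at -0.66 (adjusted p 0.216), and XPOT, which exports tRNA from the nucleus, at -0.13 (adjusted p 0.851). The call of SLC3A2 was lost without dox-plus replicate 1 (adjusted p 0.0566), and those of SLC7A5, SLC1A5 and STC2 were kept without each array.

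Of the 13 synthetases, 5 were called lower at day 16. CARS, which charges cysteine tRNA, read 9.75 and 9.78 in dox-plus and 11.13 and 11.12 in dox-minus day 16 cells, a log2 fold change of -1.37 ± 0.16 (adjusted p 0.000196) and the smallest adjusted p among the members in this comparison. WARS, for tryptophan, read 10.01 and 10.09 against 11.30 and 11.31 (-1.25 ± 0.21, adjusted p 0.00221). Replicates of both genes differed by less than 0.1 within each of these day 16 groups, but not in all other groups.

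SARS, for serine, was at -0.79 (adjusted p 0.0189), YARS, for tyrosine, at -0.70 (adjusted p 0.0368) and AARS, for alanine, at -0.61 (adjusted p 0.0407). These 3 calls were lost without some arrays. That of AARS was kept without 3 of the 12 arrays and that of YARS without 4 of 12, with adjusted p up to 0.268 and 0.287 without dox-plus replicate 1. That of SARS was lost without dox-minus replicate 1 (adjusted p 0.0834), dox-plus replicate 1 (0.0933) and dox-plus replicate 2 (0.0941).

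The other 8 synthetases were not called. TARS (-0.69, adjusted p 0.0929), GARS (-0.64, adjusted p 0.0822), MARS (-0.63, adjusted p 0.149) and VARS (-0.59, adjusted p 0.155) had negative estimates of similar size to those of AARS and YARS. NARS (-0.20), IARS (-0.01), LARS (-0.01) and EPRS (0.13) lay nearer 0, with adjusted p from 0.61 to 0.989. Precision was lowest for IARS and LARS (standard error 0.32), whereas NARS (0.23) and EPRS (0.26) were close to MARS (0.27). IARS read 10.32 and 11.70 on the dox-minus day 16 arrays, a replicate difference of 1.39, and had a standard error of 0.44, against 0.16 for CARS. The promoter core was present in CARS and AARS, which were called, and in IARS, MARS, NARS and TARS, which were not. Over the members with a window it was present in 6 of 20 called at day 16 and in 4 of 14 not called.

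**Figure D3:**
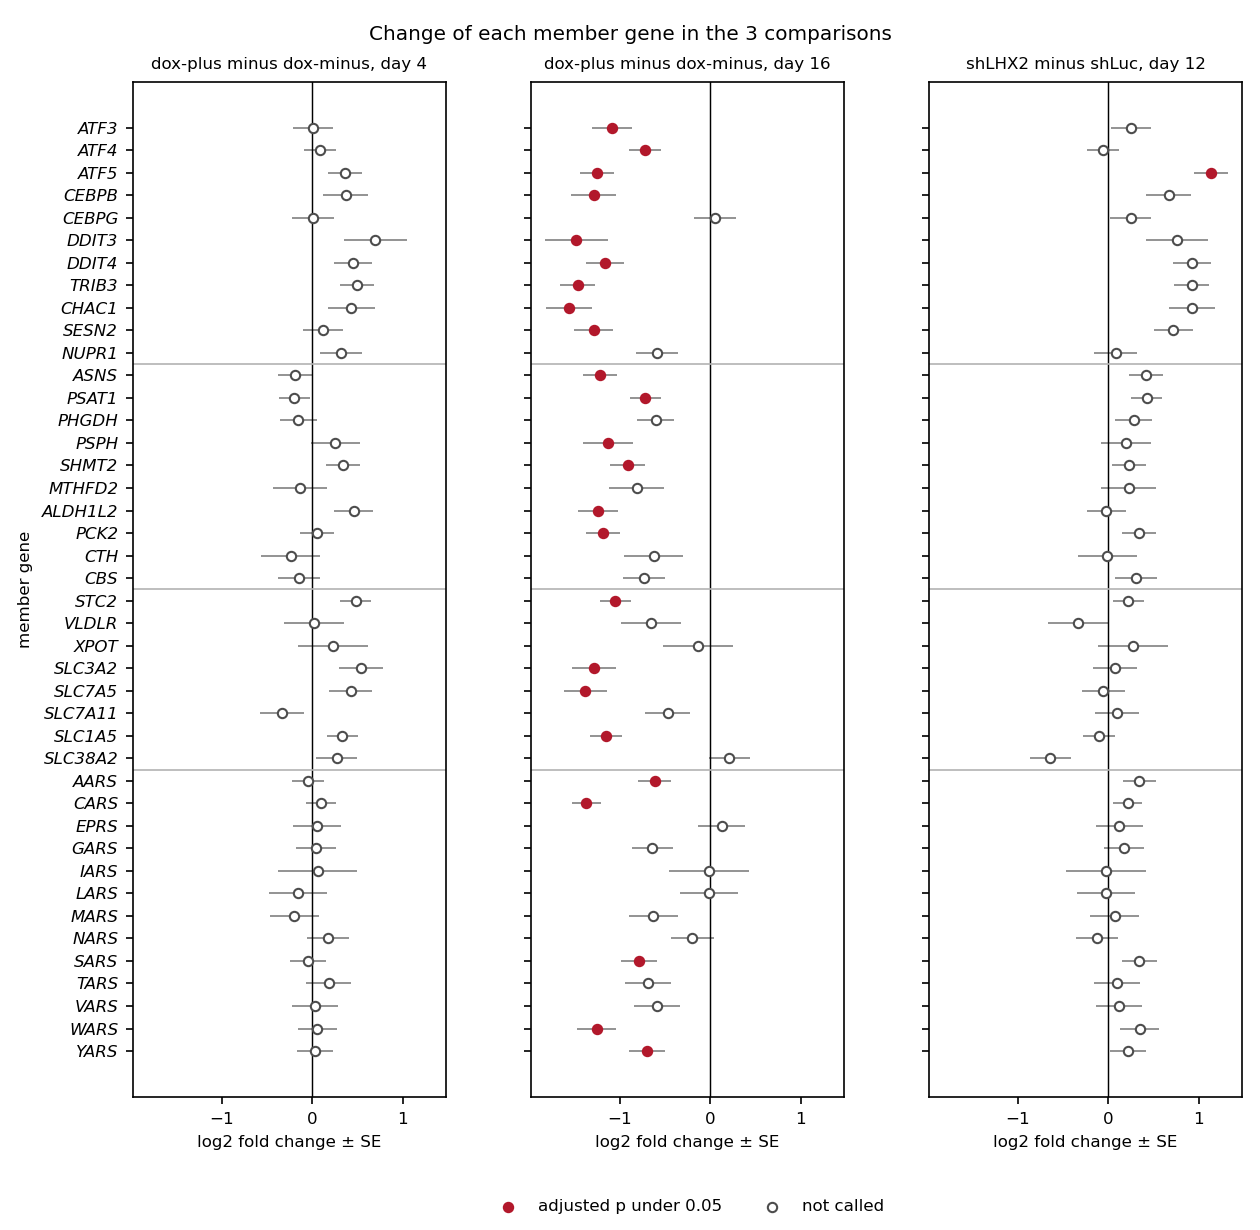
Log2 fold change with its fitted standard error (x axis) for each of the 42 members (y axis) in dox-plus against dox-minus cells at day 4 and at day 16 and in shLHX2 against shLuc cells at day 12 of neural induction. Filled points passed an adjusted p under 0.05, of which there are 0, 24 and 1, and grey lines part the regulators, enzymes, transport genes and synthetases.

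A total of 10 members had several probes above background. For ASNS, PSPH, PCK2, CTH, SLC3A2, CARS and WARS the probes had the same direction and the same call at day 16. ATF4 had 3 kept probes. Its brightest, used above, gave -0.72, another gave -1.04, and the third, which starts at base 593 of its transcript where the first starts at base 1934, gave 0.03 at day 16 with adjusted p 0.963 among kept probes. MTHFD2 had a second probe at -0.84 with adjusted p 0.0167, whereas the probe used was not called. For VARS the second probe gave -0.12 with adjusted p 0.762. The difference among the ATF4 probes was not tested.

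At day 4, 1 day after doxycycline ended, 0 of the 42 members were called by limma (3 had an unadjusted p under 0.05), against 1.92% of all genes (1.32% higher and 0.594% lower). The median log2 fold change was 0.08 over the members and -0.01 over all genes, and 31 members were above 0, among them all 11 regulators. DDIT3 read 8.03 and 9.22 in dox-plus and 7.70 and 8.16 in dox-minus cells, so the groups overlapped, and its log2 fold change was 0.70 ± 0.34 (adjusted p 0.401). SLC3A2 read 12.74 and 12.23 against 11.94 and 11.94 (0.54 ± 0.24, adjusted p 0.339). TRIB3 read 10.19 and 10.23 against 9.64 and 9.79 (0.49 ± 0.19, adjusted p 0.265). STC2 read 11.09 and 11.10 against 10.70 and 10.53 (0.48 ± 0.17, adjusted p 0.21). The dox-plus arrays were the higher ones for SLC3A2, TRIB3 and STC2, but these differences did not pass the test over all genes. The synthetases ranged only from -0.20 to 0.18. Mesoderm markers summed to 4540 to 4890 in dox-plus against 9010 to 9450 in dox-minus day 4 cells, with 1 of 9 called lower (ACTC1, -1.05, adjusted p 0.0128). Of 8 neuronal markers 1 was called lower, and of 3 endothelial markers 1 was higher and 1 lower. No pluripotency, neural progenitor, mesenchyme, endoderm or neural crest marker was called. The part of these markers in the members' values was not tested.

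The dox difference itself changed between the days. The difference of the 2 dox effects (day 16 minus day 4) was called for 18 of 42 members (42.9%), all of them negative, against 7.85% of all genes called, 4.68% in that direction and 3.17% in the other. The regulators made up 7 of the 18, the enzymes 5, the transport and other targets 4 and the synthetases, CARS and WARS, 2. The median over the members was -0.84. Of 11 NRF2 targets, a neighbouring list described below, 5 were also called lower for this difference, with a median of -0.85. For ASNS, PSPH, PCK2 and CARS a kept probe other than the one used was not called for this difference, as given below. Without dox-minus day 4 replicate 1, 11 members were called, with 1 enzyme (ALDH1L2) left of the 5, and without dox-plus day 16 replicate 1, 12 were.

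The same arrays can be read over time, with values that are not independent of the dox comparisons because they share samples. In dox-minus cells 7 members rose from day 4 to day 16, against 18% of all genes called and 9.69% called higher. They were DDIT3 (1.51, adjusted p 0.00966), DDIT4 (1.49, adjusted p 0.000387), ATF3 (1.10, adjusted p 0.00486), TRIB3 (1.01, adjusted p 0.00306), NUPR1 (0.94, adjusted p 0.0152), ALDH1L2 (0.80, adjusted p 0.0236) and STC2 (0.58, adjusted p 0.0352). SLC7A11 fell (-1.44, adjusted p 0.00157), where 8.35% of all genes were called lower, and 0 of 13 synthetases were called by limma (0 at an unadjusted p under 0.05). The count of 8 was 4 without dox-minus day 4 replicate 1, 5 without its replicate 2 and 5 without dox-minus day 16 replicate 2. The calls of DDIT4, TRIB3 and SLC7A11 were kept without each array. Without dox-minus day 4 replicate 1 the adjusted p was 0.0504 for ATF3, 0.0915 for DDIT3, 0.0963 for NUPR1 and 0.0793 for STC2. Without its replicate 2 it was 0.214 for ALDH1L2, 0.0597 for NUPR1 and 0.187 for STC2. Without dox-minus day 16 replicate 1 it was 0.0734 for NUPR1 and 0.143 for STC2, and without replicate 2 it was 0.0594 for DDIT3, 0.0925 for ALDH1L2 and 0.0574 for STC2. The call of STC2 was also lost without either dox-plus day 16 array (0.0528) and without either shLuc array (0.0603).

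In dox-plus cells 26 members (61.9%) fell from day 4 to day 16 and 0 rose, against 36.6% of all genes called, 18.9% lower and 17.8% higher. The calls covered 6 of 11 regulators, 7 of 10 enzymes, 5 of 8 transport and other targets and 8 of 13 synthetases, and the median log2 change was -0.88. Without dox-plus day 16 replicate 1, 20 members and 4 synthetases were called, with adjusted p of 0.181 for AARS, 0.134 for MARS, 0.153 for VARS, 0.123 for YARS, 0.0544 for ALDH1L2 and 0.0565 for ATF4. Without its replicate 2, or without dox-plus day 4 replicate 2, 5 synthetases were called. SLC7A5 had the largest change, from 14.28 and 13.72 at day 4 to 11.65 and 11.86 at day 16 (-2.24, adjusted p 2.43e-05). CHAC1 changed by -1.94 (adjusted p 0.000129), SLC1A5 by -1.81 (adjusted p 1.24e-05), ATF5 by -1.63 (adjusted p 4.28e-05) and CARS by -1.46 (adjusted p 3.74e-05). For ATF4 the probe used gave -0.63 and another -0.89 (limma adjusted p 0.0051 among kept probes), but the third gave 0.28 (0.469). For VARS the probe used gave -0.94 and the second -0.37 (0.234). SLC7A11, detected on neither dox-plus day 16 array, was at least 1.98-fold lower there than at day 4, a bound taken against the lowest detected signal of each array (adjusted p 0.00046).

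DDIT3, DDIT4, ATF3 and NUPR1 were called higher over time in dox-minus cells. Their change in dox-plus cells was not called (DDIT3 -0.67, DDIT4 -0.13, ATF3 0.00 and NUPR1 0.02). For SLC7A5, SLC1A5, SLC3A2, CARS and WARS the change in dox-minus cells was -0.44 to 0.02 and not called, and the change in dox-plus cells was called. TRIB3 was called in both, at 1.01 in dox-minus and -0.95 in dox-plus cells. ALDH1L2 (0.80 and -0.89) and STC2 (0.58 and -0.96) were also called in opposite directions, and SLC7A11 was called lower in both. The difference between the changes over time is the same contrast as the difference of the dox effects. It was called for DDIT3 (-2.18, adjusted p 0.0188) and DDIT4 (-1.61, adjusted p 0.00597) but not for ATF3 (-1.09, adjusted p 0.0566) or NUPR1 (-0.91, adjusted p 0.121). It was called for SLC7A5, SLC1A5, SLC3A2, CARS, WARS, TRIB3, ALDH1L2 and STC2.

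Markers of cell types moved with time as well. In dox-minus cells 10 of 11 mesenchyme and fibroblast markers were called higher at day 16, and their summed signal ran from 7560 to 8220 at day 4 and from 37900 to 38800 at day 16. Of 9 mesoderm markers 6 were higher (9010 to 9450, then 34700 to 36400), of 10 neural progenitor markers 8 were higher (3620 to 3650, then 11900 to 13400), and of 10 pluripotency markers 7 were lower (52000 to 52900, then 27600 to 32800). In dox-plus cells 9 of 10 neural progenitor markers were higher (3770 to 5110, then 37300 to 38400), and 6 of 10 pluripotency markers were lower and 2 higher (46200 to 52000, then 38000 to 43400). There 6 of 11 mesenchyme markers were higher and 2 lower (5820 to 8310, then 8660 to 9260), and 2 of 9 mesoderm markers were higher and 1 lower (4540 to 4890, then 6230 to 6830). The neural progenitor counts and sums include LHX2, which was called higher over time in dox-minus and dox-plus cells (limma adjusted p 1.68e-08 and 2.38e-08). The part of these marker shifts in the members' changes over time was not tested.

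**Figure D4:**
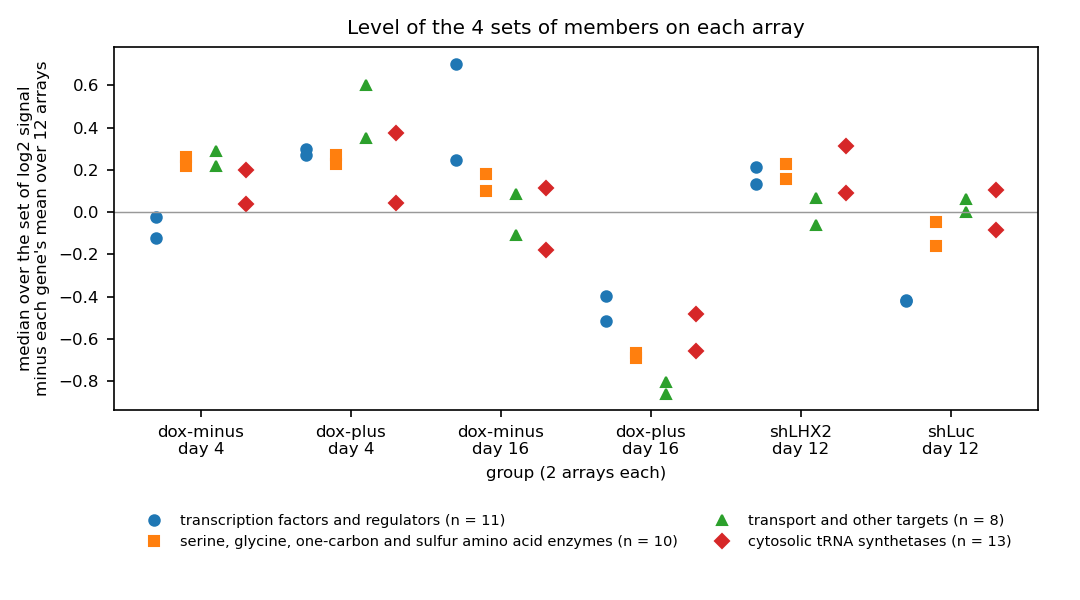
Median over each of the 4 sets of members (symbols) of the normalized log2 signal minus each gene's mean over 12 arrays (y axis), on each of the 2 arrays of the 6 groups (x axis). The regulators stand highest on 1 dox-minus day 16 array (0.70), the other (0.24) lies below both dox-plus day 4 arrays (0.27 and 0.30), and they are low in dox-plus day 16 (-0.40 and -0.51) and shLuc cells (-0.42 and -0.41), whereas each of the other 3 sets has its 2 lowest arrays in the dox-plus day 16 group.

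In the knockdown, after 12 days of neural induction, 1 of 42 members was called, against 0.543% of all genes (0.249% higher and 0.294% lower). ATF5 read 11.23 and 11.42 in shLHX2 and 10.22 and 10.17 in shLuc cells, with no overlap, and was 2.20-fold higher (log2 fold change 1.13 ± 0.18, adjusted p 0.0181). The call was lost without shLHX2 replicate 1 (adjusted p 0.088) or 2 (0.192) and without shLuc replicate 1 (0.206) or 2 (0.22), each of which leaves 1 array in a group.

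None of the other regulators passed the test in the knockdown. Of the 11, 10 had a positive log2 fold change, with a median of 0.72 against 0.01 over all genes. CHAC1 read 8.30 and 8.47 in shLHX2 and 7.47 and 7.45 in shLuc cells (0.92, adjusted p 0.174). TRIB3 read 10.02 and 9.99 against 8.92 and 9.24 (0.92, adjusted p 0.0597). DDIT4 read 12.14 and 12.41 against 11.19 and 11.52 (0.92, adjusted p 0.0896). These 3 genes, and SESN2 (0.72, adjusted p 0.221), were singled out after their values were seen, because they passed when arrays were weighted by quality. None of the 3 overlapped between the groups, which adds no support for genes picked by their values.

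The enzymes had a median of 0.26 and ranged from -0.02 to 0.42 in the knockdown, and the synthetases had a median of 0.12 and ranged from -0.12 to 0.35. The transport and other targets had a median of 0.01, with SLC38A2 lowest at -0.64 (adjusted p 0.323). The median over all 42 members was 0.22, and it was -0.00 on the unnormalized values, on which the median of all genes shifted to -0.18. In these groups the mesenchyme markers summed to 4440 to 5080 in shLHX2 and 4610 to 5260 in shLuc cells, with 1 of 11 called, and the neural progenitor markers to 4260 to 5150 against 6220 to 6300, with 2 of 10 called lower. The neural progenitor list and its sum include LHX2, the gene that the hairpin targets. LHX2 was 1 of the 2 called, and the other was PAX6 (-1.57, adjusted p 0.0079). Endothelial markers summed to 296 to 403 against 826 to 1000 (1 of 3 called lower), endoderm markers to 389 to 444 against 685 to 738 (1 of 6 lower) and mesoderm markers to 5010 to 7610 against 4860 to 5140 (2 of 9 lower). Pluripotency markers (55200 to 63500 against 57000 to 63000), neuronal markers (5370 to 6410 against 5380 to 5590) and neural crest markers (5320 to 7380 against 4540 to 4830) had 0 called by limma (1, 5 and 1 at an unadjusted p under 0.05). Their part in the members' values was not tested.

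The dox and hairpin comparisons share no arrays, so their values can be set side by side. Of the 42 members, 30 lay below 0 in dox-plus day 16 cells and above 0 in shLHX2 cells, 9 lay below 0 in both, 2 above 0 in both, and SLC38A2 was above 0 at day 16 and below 0 in the knockdown. Over all 15649 genes tested, 4700 lay below 0 at day 16 and above 0 in the knockdown. Of the genes below 0 at day 16, 61.9% lay above 0 in the knockdown over all genes, and 76.9% (30 of 39) over the members. ATF5 was the single member called in both, at -1.25 and 1.13, among 37 genes called in both, 24 of them in opposite directions. These genes share regulators and arrays, so the members are not independent counts.

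Genes of neighbouring pathways were looked up in 9 lists named by function. Of their 126 genes tested, 15 (11.9%) were called at day 16, all of them lower. Of all genes, 7.62% were called lower and 6.08% higher. The NRF2 targets made up 5 of the 15. Of 9 other cytosolic synthetases and complex proteins tested and of 16 mitochondrial synthetases, 0 were called by limma (1 and 0 at an unadjusted p under 0.05), with the largest differences in AIMP2, a scaffold of the synthetase complex (-0.45, adjusted p 0.109), and in CARS2 (-0.54, adjusted p 0.263). Of 14 genes for eIF2 kinases, phosphatase subunits and eIF2B, 1 was lower, PPP1R15A, the inducible GADD34 subunit that reverses eIF2 phosphorylation (-1.15, adjusted p 0.0113). Among 19 genes of the ATF6 and XBP1 arms, HERPUD1 (-0.81, adjusted p 0.0155) and EDEM1 (-0.73, adjusted p 0.041), both of protein degradation at the endoplasmic reticulum, were called lower. Of the 19, 17 lay below 0 with a median of -0.42, and 6 were lower at an unadjusted p under 0.05. At day 4, 18 of the 19 lay above 0 with a median of 0.28, and 0 were called by limma (3 at an unadjusted p under 0.05).

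Of 12 other folate, glycine and methionine cycle enzymes, the synthetases of formyltetrahydrofolate MTHFD1L (-1.06, adjusted p 0.00304) and MTHFD1 (-0.87, adjusted p 0.0164) were lower. Of 16 other amino acid transporters, 2 were lower. SLC1A4, the alanine and serine carrier ASCT1, was at least 1.45-fold lower (adjusted p 0.0377), and SLC7A1, a cationic amino acid transporter, was at -0.73 (adjusted p 0.0371). Of 15 mTORC1 signalling genes 0 were called by limma (1 higher and 1 lower at an unadjusted p under 0.05), with EIF4EBP1, a translation repressor, at -1.16 (adjusted p 0.0725).

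Of 14 p53 targets, 8 lay above 0 with a median of 0.02, and 3 were called lower, where 7.62% of all genes were: GDF15, a stress cytokine (-1.31, adjusted p 0.00217), CDKN1A, the cell cycle inhibitor p21 (-1.07, adjusted p 0.00306), and PHLDA3 (-0.99, adjusted p 0.0118). Of 11 NRF2 targets, 10 lay below 0 with a median of -0.66, and 5 were called lower, led by HMOX1, haem oxygenase (-2.14, adjusted p 1.02e-05), ME1, malic enzyme (-1.80, adjusted p 0.000101), and OSGIN1 (-1.35, adjusted p 0.00362). For the difference of the dox effects, 10 of the 126 genes (7.94%) were called by limma, against 7.85% of all genes. The NRF2 targets made up 5 of the 10 and the ATF6 and XBP1 arms 3, where 18 of 19 lay below 0 (median -0.70). Over time, 4 of 11 NRF2 targets were called higher in dox-minus cells (9.69% of all genes) and 6 of 11 lower in dox-plus cells (18.9% of all genes). In the knockdown 0 of the 126 genes of these 9 lists were called by limma (11 at an unadjusted p under 0.05). The largest difference in each list was, in order of size, GDF15 at 0.74 (adjusted p 0.221), SLC7A6 at -0.72 (0.468), HMOX1 at 0.66 (0.154), PDIA6 at -0.63 (0.242), IARS2 at -0.59 (0.621), DEPTOR and PPP1R15A at 0.55 (0.379 and 0.505), RARS at -0.38 (0.685) and GLDC at -0.33 (0.612).

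Replicates of one group did not agree equally well over the members. The median absolute difference between the 2 replicates was 0.34 in dox-minus day 16, 0.29 in dox-plus day 4, and 0.10 in shLuc cells. The direction of the replicate difference over the synthetases varied by group. In shLHX2 cells 12 of 13 were higher on replicate 1, in shLuc cells 12 of 13 were higher on replicate 2, and in dox-plus day 4 cells 10 of 13 were higher on replicate 2. In dox-minus cells 10 of 13 were higher on replicate 2 at day 4 and 8 of 13 at day 16, and in dox-plus day 16 cells 6 were higher on replicate 2 and 7 on replicate 1. IARS had the largest replicate difference of all members in 3 of the 6 groups.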

How the data were processed

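Per the labels' protocols, RNA was isolated with Qiagen RNeasy and labelled with the Ambion MessageAmp kit. The deposited per-array files hold, per the file headers, a mean bead intensity and a detection p-value for each of 47227 probes, and these values carry no normalization between arrays. The sources used here give no scanner software, background subtraction or genome build. The series table of deposited values equals the per-array intensities, except that its 2 shLuc columns are exchanged; it served as an alternative only.

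Intensities were background-corrected (neqc in limma 3.58.1, R 4.3.3, negative controls inferred from detection p-values, offset 16), then quantile normalized, and log2 values were analysed. Probes detected (p under 0.01) on both arrays of any group were kept (21526), and each of 15649 Entrez genes took its brightest kept probe. Of all probes, 35670 matched RefSeq symbols by Entrez identifier and 3270 carried none. NUPR1 was found under its older name P8. One limma fit over 12 arrays (6 residual and 5.92 prior degrees of freedom) gave every contrast, with Benjamini-Hochberg adjustment over all genes and calls at 0.05. Standard errors are the fit's, from groups of 2 arrays; the number of arrays limits the precision. The fit was tested on simulated data.

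Members, lists and tests were chosen with earlier results of these data known. At day 4, day 16 and in the knockdown, the 12 called members with the largest change were named with array values, or the 4 largest where none was called; ATF4 at day 16, IARS, SLC7A5 over time, and CHAC1, TRIB3 and DDIT4 in the knockdown were added after their values were seen, and other members are given by log2 fold changes; in other lists, up to 3 called genes, or the largest. Promoter windows are RefSeq's, GRCh38.p14.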

Additional observations from a re-analysis of the deposited data

Results flagged for a closer look

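For 18 members the dox effect at day 16 differed from that at day 4 by the test of the difference itself (limma, adjusted p under 0.05 over all genes), and in all 18 the effect at day 16 was the lower one. As the effect at day 16 minus that at day 4 on the log2 scale, the regulators stood at -2.18 for DDIT3, -2.0 for CHAC1, -1.96 for TRIB3, -1.66 for CEBPB, -1.61 for DDIT4, -1.61 for ATF5 and -1.40 for SESN2. The enzymes stood at -1.70 for ALDH1L2, -1.39 for PSPH, -1.26 for SHMT2, -1.23 for PCK2 and -1.03 for ASNS. The transport and other targets stood at -1.83 for SLC3A2, -1.81 for SLC7A5, -1.53 for STC2 and -1.49 for SLC1A5, and the synthetases at -1.46 for CARS and -1.31 for WARS. Of the 18, 10 passed without each array in turn. Without dox-minus day 4 replicate 1 the adjusted p was 0.117 for ASNS, 0.0858 for DDIT3, 0.0716 for PCK2, 0.0735 for SESN2, 0.0854 for WARS, 0.0967 for PSPH and 0.0622 for SHMT2, so that 1 of 5 enzymes was still called. Without dox-plus day 16 replicate 1 it was 0.0695 for CEBPB, 0.204 for PSPH and 0.064 for SHMT2. For each of these 8 genes the highest of the values given is the highest that leaving out 1 array gave. The 18 calls use 1 probe per gene. With limma over kept probes, other probes of ASNS (-0.76, adjusted p 0.138), PSPH (-0.88, 0.125), CARS (-0.68, 0.252) and PCK2 (-0.59, 0.222) were not called for this difference. There the PSPH probe used had an adjusted p of 0.0538. A further probe of PCK2 (-1.42, 0.0131) and the other kept probes of SLC3A2 and WARS were called.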

How the results depend on the processing

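Numbers of members called kept their direction under all alternatives run, and no member's called change reversed. At day 16 the count of 24 ran from 17 (with only the compared arrays in the fit) to 27 under the planned settings. It was 34 with day 16 replicates paired crosswise, a setting chosen after seeing the data, and leaving out each array gave 14 to 25. At day 4 the count of 0 became 1 (TRIB3) on the unnormalized values, on which the median of all genes shifted by 0.23; leaving out arrays gave 0. In the knockdown the count of 1 became 5 with array weights, 2 without background correction, with offset 50 and with a trended robust fit, and 0 on the unnormalized values and with the replicate block; leaving out arrays gave 0 to 1. Over time, leaving out arrays gave 4 to 8 members in dox-minus cells (8 with all arrays), and 20 to 27 in dox-plus cells (26). For the difference of the dox effects it gave 11 to 18 (18), and settings gave 12 to 22. With the replicate block the other counts were 22 at day 16, 0 at day 4, 7 and 27 over time and 16 for the difference, so that it moved none of those counts by over 1.5 times. The numbers were not taken to pair the samples: deviations of same-numbered arrays from their group means correlated at 0.33 at day 4, -0.58 at day 16, 0.07 in the knockdown, 0.18 over time in dox-minus and -0.42 in dox-plus cells, and over all 15 pairs of groups from -0.58 to 0.64, with 5 over 0.1. The causes were not tested, except that leaving out an array or fitting fewer arrays leaves fewer samples. Signals near background limit SLC7A11 and NUPR1, each undetected on some arrays. The ALDH1L2 probe used was detected on all 12 arrays, but its dox-plus day 16 signals were also low.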
